A study of Mus musculus with 24 samples.

Results

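Rab proteins are the family of small GTPases that mark the membranes of the secretory and endocytic pathways and steer vesicle transport between them. A Rab is switched on by an exchange factor that loads GTP, recruits effectors such as tethers and motors to its membrane, and is switched off by a GTPase activating protein. A geranylgeranyl tail, added with the help of escort proteins, holds it in the membrane, and GDI proteins extract the inactive form into the cytosol. In the ovary such transport serves the uptake and recycling of receptors, the handling of cholesterol for steroid synthesis and the release of the cortical granules of the oocyte. Here the family was taken as every probe set annotated to a single gene whose symbol is Rab followed by a number and at most a short suffix. This gave 95 of the 22626 probe sets tested, which measured 50 of the 59 protein-coding Rab genes in RefSeq. Rab19, Rab26, Rab35, Rab36, Rab39, Rab39b, Rab42, Rab44 and Rab9b were not analysed here.

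Ovaries of the mouse line FL1 were compared with those of DUKsi. FL1 had been selected to generation 130 on an index of litter size and litter weight at birth, and DUKsi is an inbred line kept without selection that shares the genetic origin of FL1. Ovaries of 30 animals per line, all virgin females 6 to 9 weeks old in metestrus, had been combined into 6 pools per line, and each pool was hybridized to 2 MOE 430A arrays, 24 in all. The number of animals per pool was 5 by the methods and the line total, whereas the sample labels give 6. Values are MAS5 signals, an estimate of transcript abundance on a linear scale, averaged over the arrays of a pool and given as mean ± SD over 6 pools. Fold changes are ratios of mean signals, FL1 over DUKsi, and log2 ratios, called log2 fold change on the axes, are FL1 minus DUKsi differences of mean log2 signals. A probe set passed the test when its adjusted p was under 0.01 by limma on log2 signals. The pools hide the spread between animals. DUKsi was inbred by full-sib mating, whereas FL1 was derived from an outbred population and kept with many mating pairs. The lines thus differ in breeding scheme as well as in selection, and no further selected or unselected line was compared here.

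Whole ovaries were used, so that fewer cells of a type and less RNA per cell cannot be told apart. The summed signal of 10 luteal marker genes, such as those of the enzymes of progesterone synthesis, was 71846 to 84956.8 in FL1 pools and 36855.1 to 56602.9 in DUKsi pools, and 5 of the 10 were higher in FL1, where 3.74% of all genes passed the test in either direction. The summed signal of 11 granulosa cell markers was 35202.5 to 42873.5 in FL1 and 43513.5 to 50742.7 in DUKsi, with 3 lower in FL1. The brightest genes weigh most in this sum, above all Inha (log2 ratio -0.16, adjusted p = 0.169). The markers did not move together: Fshr was nearly level (-0.05, adjusted p = 0.807), and Amh alone had a ratio above 0 (0.27, adjusted p = 0.191). The sum of 10 oocyte markers was 8066.9 to 10490.1 in FL1 and 10756.4 to 12529.4 in DUKsi, with 1 lower, a count near the background. The luteal list includes Cyp11a1 and Ptgfr, and the granulosa list Cdh2, Ccnd2, Inhbb and Nr5a2. The study had already reported these genes as differing between the lines, so that the luteal and granulosa counts are not independent of these data. The 3' to 5' signal ratio of beta-actin, which rises as RNA degrades, was 1.67 ± 0.423 in FL1 and 1.27 ± 0.0522 in DUKsi (p = 0.00216 by a two-sided exact permutation test over pools, the smallest value 6 against 6 can give). The same ratio of Gapdh was 1.53 ± 0.42 in FL1 and 1.28 ± 0.146 in DUKsi (p = 0.203 by the same test). Its pools overlapped, at 1.13 to 2.31 in FL1 and 1.08 to 1.51 in DUKsi, and no fit here adjusted for it. FL1 pool 3 was the highest of all pools in each ratio, 2.45 for beta-actin and 2.31 for Gapdh. This pool also correlated least with the rest of its line, with a mean of 0.9469, where the other 11 pools had 0.9594 to 0.9741. These differences run along with the line in every comparison given here, and their part in the Rab signals was not tested. For beta-actin the lowest FL1 pool, at 1.3215, lay above the highest DUKsi pool, at 1.3169. A fit with this ratio as a covariate therefore cannot fully part it from the line. Its slope rests mostly on FL1 pool 3, so that such a fit is no separate check from leaving that pool out.

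The counts of Rab probe sets that differed between the lines were near or below the shares of all probe sets. The family was not tested against the rest of the array. Of the 95 probe sets, 1 passed the test, a probe set of Rab14 that was higher in FL1, and 0 passed it as lower. Among all 22626 probe sets, 3.38% passed the test, 1.83% as higher and 1.55% as lower. At an adjusted p under 0.05, 3 Rab probe sets passed, of Rab14, Rab27a and Rab31, beside 6.91% of all probe sets. At an unadjusted p under 0.05 there were 16 (10 higher and 6 lower), beside 19.8% of all. The log2 ratios of the family ran from -0.58 to 1.25 with a median of -0.02, and that of all probe sets was -0.07. A total of 44 were above 0 and 51 below. At least 1.5-fold differences in mean signal, without a test, were seen in 4 Rab probe sets, beside 8.57% of all, and the Rab14 probe set was the 1 that also passed the test, beside 2.32% of all. The pools of the lines did not overlap in 1 Rab probe set, the Rab14 probe set, beside 4.62% of all.

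**Figure D1:**
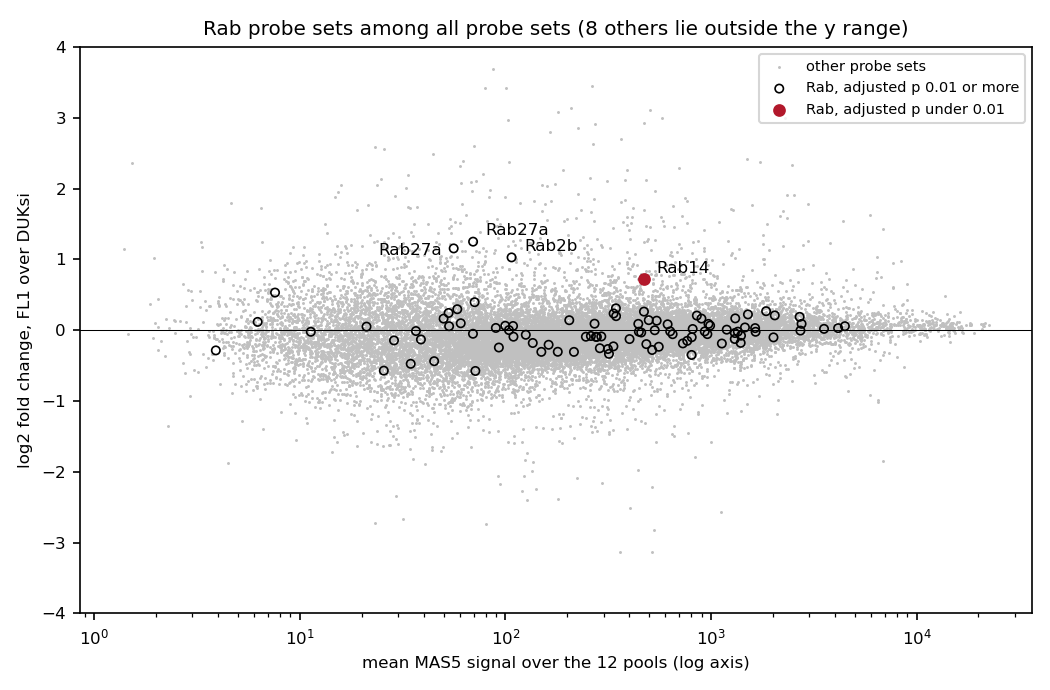
Log2 ratio of FL1 over DUKsi (y axis) against the mean MAS5 signal of the 12 pools (x axis, log scale) for 95 Rab probe sets (circles) and all other probe sets (grey dots), 8 of which lie outside the y range. The filled point of Rab14 is the 1 Rab probe set past the test, and the open points of Rab27a and Rab2b further up lie at lower signals.

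How tightly a difference could be bounded depended on the signal. In 67 of the 95 Rab probe sets (70.5%) the 95% confidence interval of the fold change lay within 1.5-fold in either direction, beside 53.5% of all probe sets. Among the 62 Rab probe sets with a mean signal of at least 200, 57 had such an interval (91.9%, beside 82.3% of all probe sets of that brightness). Among the 33 below 200, 10 did (30.3%), so that for most of the dim probe sets moderate differences could not be bounded. The share among all probe sets below 200 is not given here. In 10 Rab probe sets both lines averaged under 48.6, a level that 20% of all signals do not reach, and in 5 more 1 line did. The median SD of log2 signals between pools was 0.225 in FL1 and 0.166 in DUKsi for the Rab probe sets, and 0.281 in FL1 and 0.224 in DUKsi for all.

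When each gene was represented by its probe set with the highest signal, 0 of the 50 Rab genes passed the test by limma, beside 3.74% of all 12393 genes. At an adjusted p under 0.05 there were again 0, beside 7.42% of all genes, and 7 had an unadjusted p under 0.05, beside 20.6% of all genes. The log2 ratios of the 50 genes lay between -0.57 and 0.40 with a median of -0.02, and the median of all genes was -0.05. The interval lay within 1.5-fold for 37 of the 50 genes (74%, beside 59.5% of all genes) and within 2-fold for 46 (beside 10421 of all 12393 genes).

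**Figure D2:**
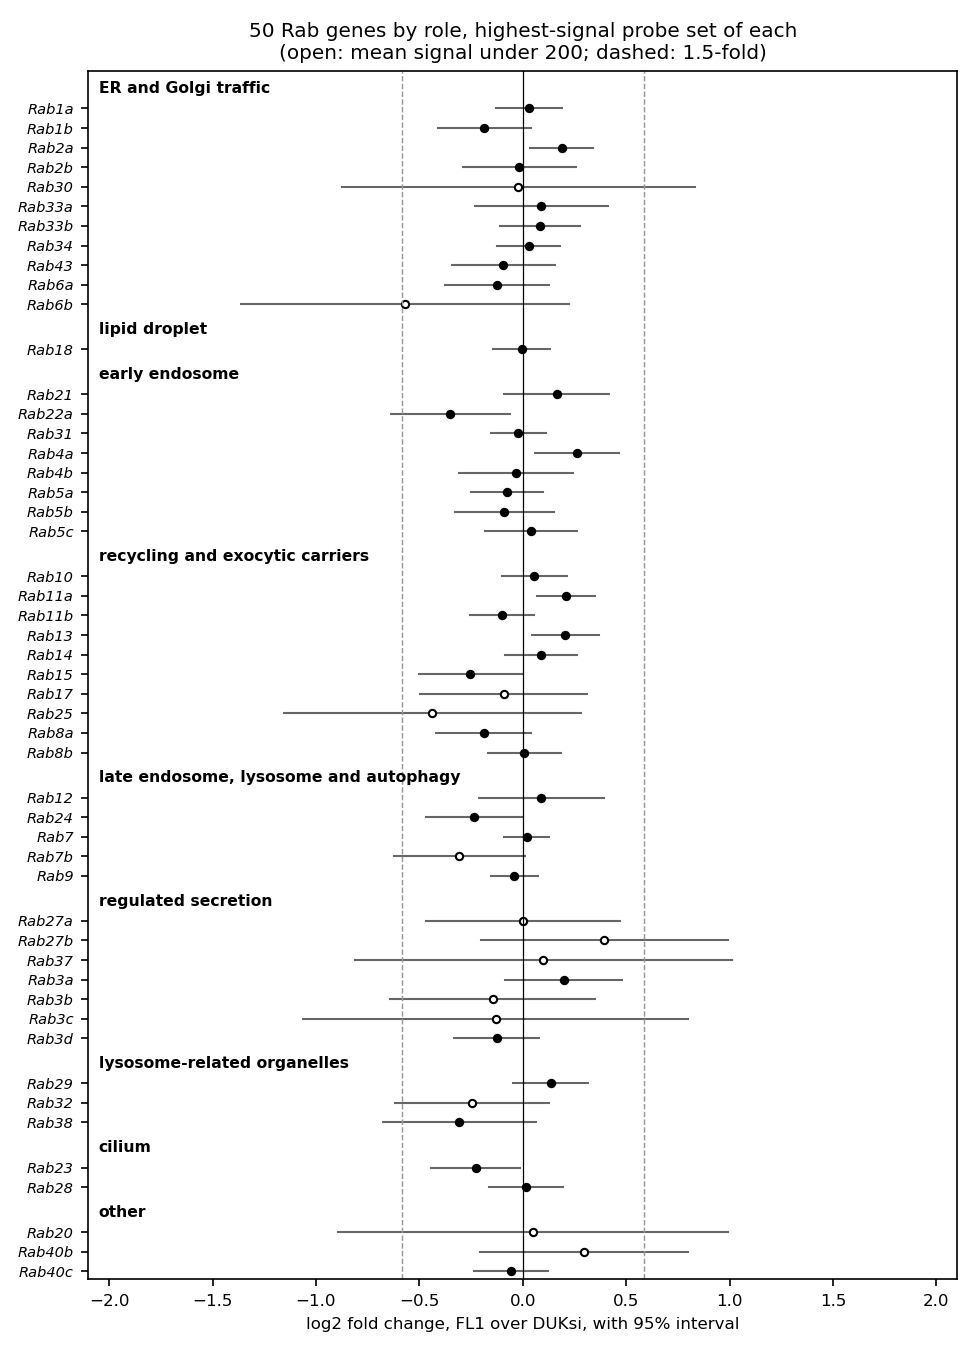
Log2 ratio of FL1 over DUKsi with its 95% confidence interval for the 50 Rab genes, each by its probe set with the highest signal, grouped by the membrane step the gene is known for. The dashed lines mark 1.5-fold; open points have a mean signal under 200, and the intervals of 37 genes stay between the lines.

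Rab14, which acts in transport between the Golgi apparatus and endosomes and in recycling to the cell surface, was measured by 6 probe sets. In probe set 1441992_at the signals were 506.4, 613.2, 658.3, 561.3, 545.3 and 626.1 in the FL1 pools, against 300.8, 392.6, 299.3, 399.8, 399.3 and 341.2 in the DUKsi pools. Every FL1 pool lay above every DUKsi pool. The mean was 585.1 ± 56.9 in FL1 and 355.5 ± 48.2 in DUKsi, or 1.65-fold (log2 ratio 0.72, SE 0.103, 95% interval 0.51 to 0.94, adjusted p = 0.000303). The difference passed the test under all 28 alternative settings, with log2 ratios of 0.60 to 0.81 and adjusted p of 1.68e-05 to 0.00516.

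The other probe sets of Rab14 did not pass. The one with the highest signal, 1419246_s_at, gave 2468.9, 2682.5, 3150.8, 2827.4, 2860.4 and 3054 in FL1 pools, against 2391.9, 2486.6, 2695.1, 3300.5, 2634.3 and 2547 in DUKsi pools. The ranges overlapped, and the means were 2840.7 ± 247.2 in FL1 and 2675.9 ± 324.1 in DUKsi (log2 ratio 0.09, SE 0.0815, 95% interval -0.08 to 0.26, adjusted p = 0.589). The interval of this probe set ends below the one of 1441992_at. Within a pool, the ratio of 1441992_at to 1419246_s_at was 0.191 to 0.229 in FL1 and 0.111 to 0.158 in DUKsi, so that the probe sets of the gene moved unequally between the lines.

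Probe set 1415686_at had 1706.5, 1801, 1193.6, 1659.4, 1750 and 1698.7 in FL1 pools, against 1367.3, 1379.5, 1525.2, 1433.4, 1299.8 and 1336.7 in DUKsi pools. FL1 pool 3, the pool with the highest actin ratio, was the lowest of all 12, and the other 5 FL1 pools lay above every DUKsi pool. With all pools the log2 ratio was 0.22 (SE 0.0903, adjusted p = 0.175), and without FL1 pool 3 it was 0.31 (adjusted p = 0.00322). With the actin ratio as a covariate it was 0.43 (adjusted p = 0.00403). Of the remaining probe sets, 1419243_at averaged 1388.2 ± 98.1 in FL1 and 1236.1 ± 76.0 in DUKsi (log2 ratio 0.17, adjusted p = 0.159), 1419244_a_at averaged 726.6 ± 67.0 in FL1 and 806.2 ± 72.6 in DUKsi (-0.15, adjusted p = 0.326), and the dim 1419245_at averaged 57.4 ± 14.8 in FL1 and 48.4 ± 11.6 in DUKsi (0.24, adjusted p = 0.606). The sequences of the probes were not used here, so that the part of the Rab14 transcript each one reads is not given. Of the 5 annotated genes on either side of Rab14, 6 were measured. Stom, the gene of the membrane protein stomatin, was lower in FL1 (log2 ratio -0.76, adjusted p = 0.00115), whereas Phf19, Traf1, Hc, Cntrl and Gsn did not pass. Among all genes 3.74% passed in either direction. Around Rab27a, the measured genes Dnaaf4, Ccpg1, Pigb, Rsl24d1 and Onecut1 did not pass. A part of the neighbouring genes in the Rab14 signals was not tested.

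**Figure D3:**
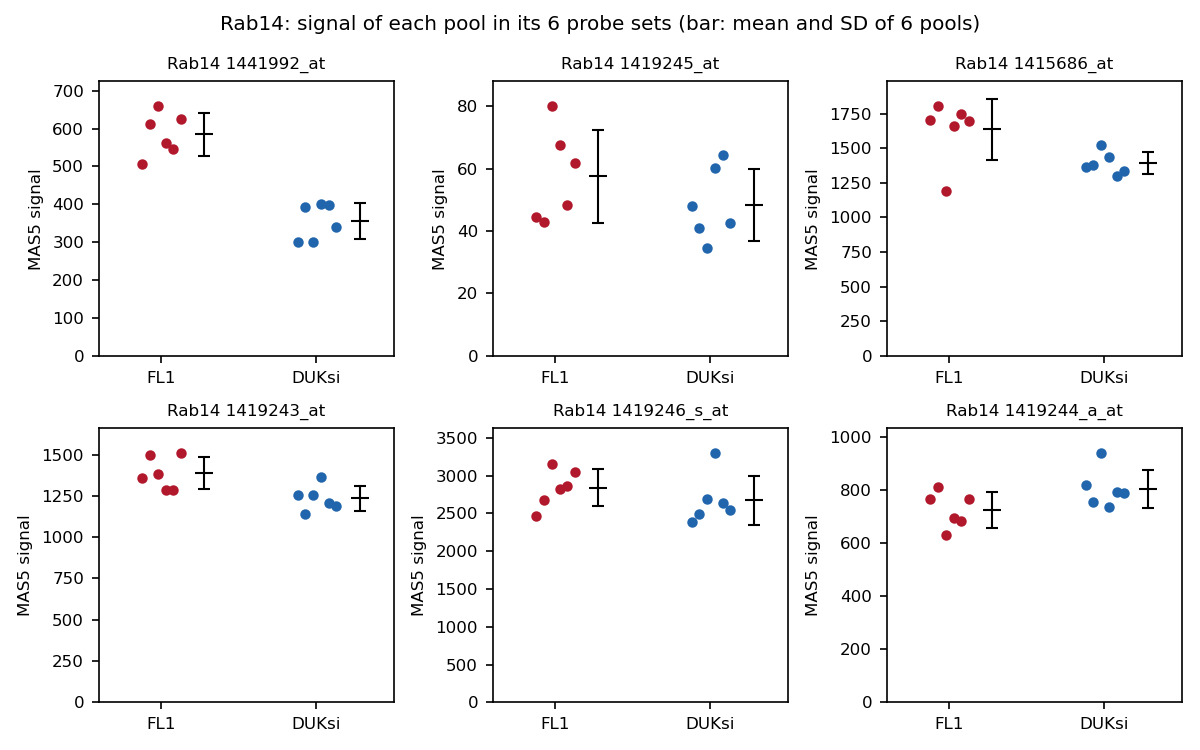
MAS5 signal (y axis, linear from 0) of each FL1 and DUKsi pool in the 6 probe sets of Rab14; points are pools and the bars give mean and SD of 6 pools. The lines separate in 1441992_at and overlap in the other 5, and in 1415686_at a single FL1 pool, at 1193.6, lies below all others.

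Rab27a, which docks secretory granules, melanosomes and cytolytic granules at the cell surface, was measured by 3 dim probe sets that differed from each other. Probe set 1425284_a_at had 60.8, 87.8, 91.8, 90.2, 47.3 and 72.4 in FL1 pools, against 68.6, 30.2, 49.5, 36.0, 21.1 and 15.9 in DUKsi pools. In 4 FL1 pools the signal was above the highest DUKsi pool. The mean was 75.0 ± 18.2 in FL1 and 36.9 ± 19.5 in DUKsi, or 2.03-fold (log2 ratio 1.16, SE 0.328, 95% interval 0.46 to 1.85, adjusted p = 0.0454), which did not pass the test at 0.01. The arrays of a pool differed here by a median of 0.866 on the log2 scale. The median was 0.418 over the Rab probe sets with a mean signal under 200 and 0.182 over all Rab probe sets. With the first array of each pool alone the log2 ratio was 0.61 (adjusted p = 0.335) and with the second 1.86 (adjusted p = 0.0389). Without FL1 pool 3 the adjusted p was 0.0632, and with the actin ratio as a covariate it was 0.119, so that both settings ended the call at 0.05.

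Probe set 1425285_a_at of Rab27a had 170.9, 139.8, 22.9, 92.3, 75.7 and 88.7 in FL1 pools, against 63.4, 50, 33.6, 40.1, 8.8 and 49.7 in DUKsi pools. All FL1 pools but pool 3 lay above the highest DUKsi pool. The mean was 98.4 ± 51.6 in FL1 and 40.9 ± 18.7 in DUKsi (log2 ratio 1.25, SE 0.5, 95% interval 0.19 to 2.31, adjusted p = 0.168). Without FL1 pool 3 the log2 ratio was 1.62 (adjusted p = 0.0271), and with the actin ratio as a covariate it was 2.30 (adjusted p = 0.00824), which passed the test. The covariate leans on the same pool and runs along with the line. DUKsi means of both probe sets lie under 48.6, so that the size of the fold is uncertain.

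The Rab27a probe set with the highest signal, 1454438_at, gave 77.6, 68.8, 186.2, 90.6, 88.8 and 130.2 in FL1 pools, against 104.6, 99.8, 88.6, 89.8, 105.2 and 118.4 in DUKsi pools. Here FL1 pool 3 was the highest of all pools. The mean was 107.0 ± 44.1 in FL1 and 101.1 ± 11.1 in DUKsi (log2 ratio 0.00, SE 0.222, 95% interval -0.47 to 0.47, adjusted p = 0.998). Markers of cells known for Rab27a did not pass the test at 0.01, and their part in the Rab27a signals was not tested. The summed signal of 10 T and NK cell markers was 712.5 to 1066.6 in FL1 and 692 to 898.2 in DUKsi, with 2 of them under 48.6 in both lines, that of 10 mast cell and platelet markers was 844.6 to 1684 in FL1 and 1124.5 to 1508.3 in DUKsi, with 2 under 48.6 in both, and that of 6 melanocyte markers was 892.9 to 1452.1 in FL1 and 965.3 to 1292 in DUKsi, with 0 under 48.6 in both lines. In each of the 3 lists 0 markers passed the test by limma, and 3, 2 and 1 had an unadjusted p under 0.05. At 0.05, the level that Rab27a 1425284_a_at reached, Nkg7, a gene of cytotoxic granules, was higher in FL1 (148.1 ± 41.1 in FL1 and 75.1 ± 28.5 in DUKsi, adjusted p = 0.0295). Gzmb, which encodes granzyme B, averaged 99.6 ± 27.5 in FL1 and 60.5 ± 4.68 in DUKsi (adjusted p = 0.0551). Mitf, a transcription factor of melanocytes and other cells, averaged 406 ± 36.9 in FL1 and 320 ± 44.8 in DUKsi (adjusted p = 0.0608). Its pools did not overlap, as in 4.62% of all probe sets. These 3 markers were named after their values were seen. The median log2 ratio was 0.27 for the T and NK cell list and -0.29 for the mast cell and platelet list. For the melanocyte list it was -0.24, opposite in direction to Mitf.

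The other gene whose probe sets differed by more than 1 on the log2 scale was Rab2b, a Rab of the early secretory pathway. Its probe set 1428115_a_at had 141.9, 119.4, 119.6, 133.1, 102.2 and 150.3 in FL1 pools, against 82.2, 196.2, 83.2, 38.0, 10.4 and 108.3 in DUKsi pools. The DUKsi pools spread on both sides of the FL1 pools, and the log2 ratio of 1.03 had an SE of 0.506 (127.8 ± 17.5 in FL1 and 86.4 ± 64.3 in DUKsi, adjusted p = 0.277). The 4 others lay between -0.27 and -0.02, and the one with the highest signal, 1452667_at, averaged 629.9 ± 110.0 in FL1 and 636.2 ± 104.4 in DUKsi (adjusted p = 0.961). Of the 50 genes, 27 had at least 2 probe sets, with a median spread of the log2 ratios within a gene of 0.26. In the 17 genes with at least 2 probe sets of a signal of 200 or more, the largest spread among those was that of Rab14, 0.88, and the median was 0.25.

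**Figure D4:**
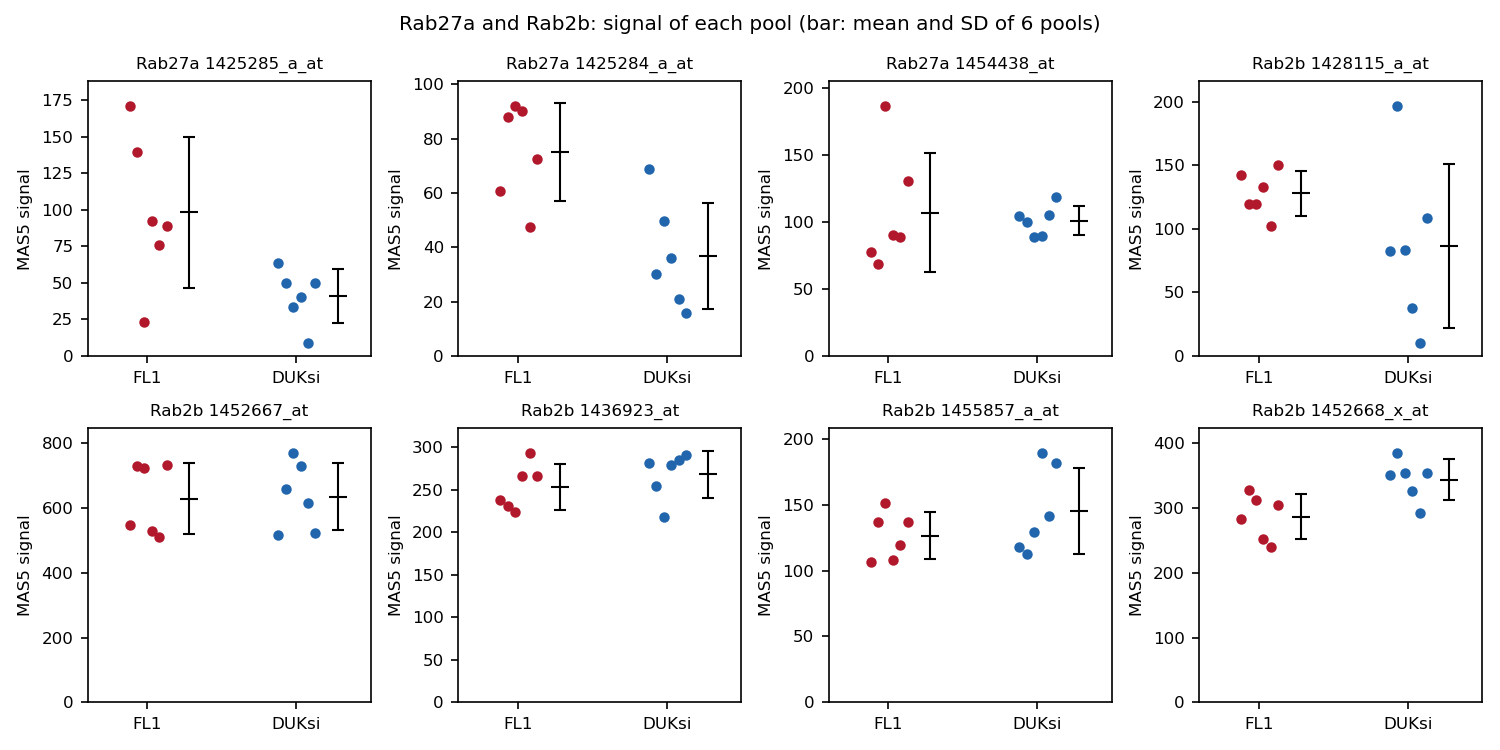
MAS5 signal (y axis, linear from 0) of each FL1 and DUKsi pool in the 3 probe sets of Rab27a and the 5 of Rab2b; points are pools and bars give mean and SD of 6 pools. In Rab27a 1425285_a_at and 1425284_a_at most FL1 pools lie above the DUKsi pools, whereas in 1454438_at the lines overlap around means of 107.0 in FL1 and 101.1 in DUKsi.

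The Rabs of traffic between the endoplasmic reticulum and the Golgi apparatus, 25 probe sets of 11 genes, held 0 probe sets past the test by limma and 2 at an unadjusted p under 0.05, beside 3.38% and 19.8% of all probe sets. At the background share fewer than 1 of 25 would pass. Rab1a, which serves the step to the Golgi, averaged 4206.6 ± 510.1 in FL1 and 4099.2 ± 129.0 in DUKsi (log2 ratio 0.03, 95% interval -0.13 to 0.19, adjusted p = 0.872). Rab2a, which acts in the same early steps, averaged 2872.4 ± 196.9 in FL1 and 2525.9 ± 243.1 in DUKsi in 1418622_at (0.19, 95% interval 0.04 to 0.34, adjusted p = 0.143). In a further Rab2a probe set, 1418621_at, FL1 pools had 2323.9, 2584.7, 1285.3, 2116.4, 2026 and 1905.6, against 1837.7, 1684.9, 1977.8, 1565.8, 1391 and 1548 in DUKsi pools. FL1 pool 3 was again the lowest, and the log2 ratio was 0.27 with all pools (adjusted p = 0.296), 0.40 without that pool (adjusted p = 0.019) and 0.62 with the actin ratio as a covariate (adjusted p = 0.0021). Rab18, known for its place on lipid droplets, the cholesterol ester store of steroid-making cells, averaged 2718.9 ± 198.5 in FL1 and 2727.6 ± 169.2 in DUKsi (-0.01, 95% interval -0.14 to 0.13, adjusted p = 0.975).

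The early endosome Rabs, 13 probe sets of 8 genes, likewise held 0 past the test by limma and 4 at an unadjusted p under 0.05, beside the same 3.38% and 19.8% of all probe sets, so that a count of 0 is near the background. Rab5a and Rab5c drive the fusion of early endosomes after internalization of receptors. Rab5a averaged 1362.4 ± 144.0 in FL1 and 1436.8 ± 141.9 in DUKsi (log2 ratio -0.08, adjusted p = 0.651). Rab5c averaged 1488.7 ± 231.8 in FL1 and 1437.1 ± 125.7 in DUKsi (0.04, adjusted p = 0.878). Rab31, a Rab of transport between the trans-Golgi network and endosomes, was singled out after its values were seen. Its probe set 1431691_a_at had 286.9, 283.2, 259.9, 257.9, 277.6 and 328.1 in FL1 pools, against 365, 348.6, 324.4, 333.8, 369.7 and 391.3 in DUKsi pools. Only the highest FL1 pool reached into the DUKsi range, and the mean was 282.3 ± 25.5 in FL1 and 355.5 ± 24.8 in DUKsi (log2 ratio -0.33, SE 0.0909, adjusted p = 0.0365). It missed 0.05 with the actin ratio as a covariate (adjusted p = 0.093), with the pool as a random block (0.052) and with only 1 array per pool (0.205 for the first arrays, 0.169 for the second). It stayed under 0.05 by the methods' t-test on linear (0.0164) and log2 signals (0.0161). The same held without FL1 pool 3 (0.0457) and without FL1 pool 3 and DUKsi pool 4 (0.0495). The other Rab31 probe set, 1416165_at, averaged 1341.8 ± 102.4 in FL1 and 1358.7 ± 44.7 in DUKsi (-0.02, adjusted p = 0.891).

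Among the Rabs of recycling endosomes and exocytic carriers, 20 probe sets of 10 genes, the Rab14 probe set 1441992_at alone passed the test. At an unadjusted p under 0.05 there were 6, with 5 higher and 1 lower. Of all probe sets, 3.38% and 19.8% did so, and a count of 1 is near the background. Rab11a, the central Rab of the recycling endosome, had 2258, 2183.5, 1949.3, 2336.7, 2073.1 and 2342.1 in FL1 pools, against 2106.2, 1882.8, 1899.8, 1968.2, 1755.6 and 1757 in DUKsi pools. In 4 FL1 pools the signal exceeded every DUKsi pool, and the mean was 2190.4 ± 155.5 in FL1 and 1894.9 ± 133.1 in DUKsi (log2 ratio 0.21, SE 0.066, 95% interval 0.07 to 0.35, adjusted p = 0.074). It did not pass in any of the 28 alternatives at 0.01, with adjusted p of 0.015 to 0.18. The other Rab11a probe set, 1434549_at, averaged 452.1 ± 62.1 in FL1 and 517.2 ± 69.8 in DUKsi (-0.20, adjusted p = 0.37). Rab10, which delivers exocytic vesicles to the cell surface, averaged 4569.3 ± 394.8 in FL1 and 4393.0 ± 387.4 in DUKsi (0.06, 95% interval -0.10 to 0.21, adjusted p = 0.717). Rab25, a Rab of epithelial cells named after its values were seen, had 21.4 to 42.3 in FL1 pools with a mean of 35.8 ± 7.86, and 54.2 ± 33.2 in DUKsi (adjusted p = 0.516), where pools 2 and 4 had 80.1 and 109.7. The summed signal of 12 markers of surface and oviduct epithelium was 2805.2 to 3307.1 in FL1 and 1867 to 8274 in DUKsi. DUKsi pool 4 had the highest sum and DUKsi pool 2 the lowest. Of these markers Upk3b was higher in FL1 (701 ± 139.3 in FL1 and 290.2 ± 82.4 in DUKsi, adjusted p = 0.000182). The part of epithelial cells in the Rab25 signals was not tested, and the FL1 mean of Rab25 lies under 48.6.

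The Rabs of late endosomes, lysosomes and autophagy, 8 probe sets of 5 genes, gave narrow intervals in their brighter members. Rab7, which governs fusion of late endosomes with lysosomes, averaged 3571.6 ± 166.7 in FL1 and 3522.6 ± 61.9 in DUKsi (log2 ratio 0.02, 95% interval -0.09 to 0.13, adjusted p = 0.879). Rab9, which returns receptors from late endosomes to the Golgi apparatus, averaged 1288.4 ± 55.3 in FL1 and 1323.9 ± 39.5 in DUKsi (-0.04, 95% interval -0.16 to 0.08, adjusted p = 0.736). Rab12, a Rab of transport from recycling endosomes to lysosomes that is named here after its values were seen, had 1209, 1259.3, 596.4, 964.1, 1107.3 and 951.4 in FL1 pools, against 917.1, 972.8, 1006.6, 940, 910.6 and 829.2 in DUKsi pools. FL1 pool 3 was far below all others. The log2 ratio was 0.09 with all pools (adjusted p = 0.78), 0.23 without that pool (adjusted p = 0.0988) and 0.49 with the actin ratio as a covariate (adjusted p = 0.00333). FL1 pool 3 gave the highest or the lowest FL1 signal in 48 of the 95 Rab probe sets (50.5%), beside 55.2% of all probe sets.

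The Rabs of regulated secretion, 15 probe sets of 7 genes, were mostly dim, with 4 probe sets at a signal of at least 200. Besides Rab27a, the Rab3 genes control calcium-triggered release of granules. Rab3d, known from exocrine and other secretory cells, averaged 384.6 ± 43.5 in FL1 and 418.7 ± 38.9 in DUKsi in 1418890_a_at (log2 ratio -0.13, adjusted p = 0.516) and 363.8 ± 33.1 in FL1 and 308.1 ± 12.1 in DUKsi in 1418891_a_at (0.24, adjusted p = 0.129). Rab3a, best known from synaptic vesicles, averaged 369.2 ± 68.1 in FL1 and 321.7 ± 56.1 in DUKsi (0.20, adjusted p = 0.448). Of the genes tied to lysosome-related organelles, Rab29 averaged 568.5 ± 35.1 in FL1 and 520.0 ± 59.7 in DUKsi (0.13, adjusted p = 0.415). Rab38, which serves melanosome formation, had 180.6, 117, 289.4, 201.2, 204.3 and 181.6 in FL1 pools, against 214.8, 260, 210.5, 206.7, 248.4 and 270.5 in DUKsi pools. FL1 pool 3 was above and the other 5 FL1 pools below all DUKsi pools (log2 ratio -0.31, SE 0.174, adjusted p = 0.355).

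The remaining genes did not pass either. Rab23, a brake on hedgehog signaling tied to the primary cilium, averaged 309.8 ± 43.2 in FL1 and 360.6 ± 20.3 in DUKsi (log2 ratio -0.23, adjusted p = 0.218), with 5 FL1 pools below all DUKsi pools. Rab28, known from cilia of photoreceptors, averaged 819.6 ± 85.9 in FL1 and 809.4 ± 74.9 in DUKsi (0.02, adjusted p = 0.938). Rab40c, a Rab with a SOCS box that binds ubiquitin ligases, averaged 636.1 ± 27.1 in FL1 and 665.3 ± 85.0 in DUKsi (-0.06, adjusted p = 0.76). Rab40b averaged 64.7 ± 19.5 in FL1 and 52.0 ± 12.2 in DUKsi (0.30, adjusted p = 0.533).

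The genes that act on Rabs were compared in the same way. Of 94 measured regulators and effectors, each by its probe set with the highest signal, 0 were higher and 0 were lower by limma at 0.01, beside 3.74% of all genes. Of the 94, 2 had an adjusted p under 0.05, beside 7.42% of all genes, and 19 had an unadjusted p under 0.05, a share close to the 20.6% of all genes. By the methods' t-test on linear signals 1 passed, Rab3ip. The median log2 ratio was -0.01, with a range of -0.66 to 0.70. The 11 genes of prenylation and membrane extraction had a median of -0.06, the 28 exchange factors 0.03, the 20 GTPase activating proteins 0.04 and the 35 effectors -0.07. Gdi2, which extracts inactive Rabs, averaged 4203.7 ± 606.8 in FL1 and 4630 ± 678.4 in DUKsi (-0.14, adjusted p = 0.519). Rabggtb, the beta subunit of the transferase that adds the lipid tail, averaged 1166.5 ± 127.8 in FL1 and 998.6 ± 97.3 in DUKsi (0.22, adjusted p = 0.16).

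The regulators with an adjusted p under 0.05 were Rab3ip and Inpp5b. Rab3ip, also called Rabin8, is an exchange factor of Rab8, and it had 288.5, 314.9, 282.5, 287.1, 296.2 and 286.6 in FL1 pools, against 239.2, 213.2, 260.2, 218.4, 240.5 and 216.7 in DUKsi pools. The ranges did not overlap (292.6 ± 11.8 in FL1 and 231.4 ± 18.4 in DUKsi, log2 ratio 0.34, SE 0.0909, adjusted p = 0.0326). Rab3ip passed 0.01 by the methods' t-test on linear (adjusted p = 0.00352) and log2 signals (0.00416) and with the pool as a random block (0.00498), but had an adjusted p of 0.0807 and 0.141 when the first or second arrays were used by themselves. Rab8a itself averaged 1056.0 ± 151.6 in FL1 and 1202.9 ± 171.2 in DUKsi (-0.19, adjusted p = 0.361). Inpp5b, an inositol phosphatase that binds several Rabs, had 730.6, 874.1, 561.5, 600.5, 715.6 and 714.5 in FL1 pools, against 424.6, 537, 569.6, 568.8, 503 and 504.4 in DUKsi pools. Only FL1 pool 3 fell into the DUKsi range (699.5 ± 110.3 in FL1 and 517.9 ± 54.3 in DUKsi, log2 ratio 0.43, SE 0.108, adjusted p = 0.0251), and without that pool the gene passed the test (0.49, adjusted p = 0.00686). Effectors of Rab27a gave log2 ratios of -0.12 for Sytl4 (adjusted p = 0.445), 0.04 for Sytl2 (adjusted p = 0.859), -0.49 for Mlph (adjusted p = 0.464) and -0.04 for Myo5a (adjusted p = 0.917).

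**Figure D5:**
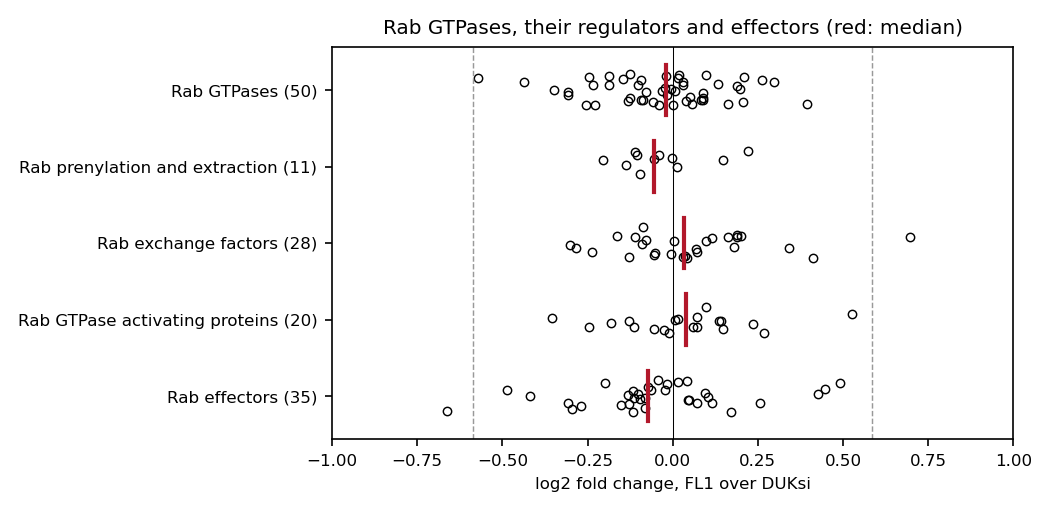
Log2 ratio of FL1 over DUKsi (x axis) for the 50 Rab genes and for 11, 28, 20 and 35 genes of 4 classes that act on Rabs, 1 probe set per gene; each circle is a gene and the red bar is the median of the class. The medians lie between -0.07 and 0.04, and 1 gene on either side of 0 among the regulators lies beyond the dashed 1.5-fold lines.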

How the data were processed

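The authors deposited MAS5 signal intensity values, on a linear scale and scaled per array to a common level; the MAS5 version is not given in the labels used here. Signals were averaged per pool and compared as log2 values over 12 pools by limma 3.58.1 in R 4.3.3 (linear fit, empirical Bayes with a trend), with Benjamini-Hochberg adjustment over 22626 probe sets; 64 control probe sets were left out. Genes came from the platform annotation, in which 20380 probe sets have 1 gene, 691 several and 1555 none, and gene order from RefSeq on GRCm38.p6. The precision is limited by the number of arrays and by 6 pools per line. No array repeated another.

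Genes named are each Rab gene with a probe set past the test, up to 2 further genes per role with the highest signal, genes whose probe sets differ by more than 1 on the log2 scale, and Rab27a; other genes are said to be named after their values were seen or illustrate a class. The members and the lists of regulators and cell markers were chosen with earlier results of these data known. MAS5 detection calls and single-probe intensities were not used here. The procedure was tested on simulated signals. Alternatives were 1 array per pool, log2 values averaged, a fit on 24 arrays with pool as random block, other scalings, an added constant, removal of the dimmest probe sets, the methods' t-test, other limma settings, a block for the pool number, a threshold of 0.05, the actin ratio as a covariate, and omitted pools.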

Additional observations from a re-analysis of the deposited data

Results flagged for a closer look

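In groups of 6 pools, a pool was singled out when its gap to the nearest other pool, divided by the range of its line, exceeded the 95% critical value of Dixon. Of 66 groups of values looked at, 7 were singled out, and chance flags about 1 in 20 groups. FL1 pool 3 accounted for 3 of them. Its beta-actin 3' to 5' ratio was 2.45, with the other FL1 pools at 1.32 to 1.74. Its signal of Rab14 1415686_at was 1193.6, with the others at 1659.4 to 1801. Its signal of Rab7 was 3239.5, with the others at 3579.4 to 3681.8. FL1 pool 6 had the lowest signal of Rab5c, 1049.3, with the next at 1471.8, and the highest of Rab3a, 500.6, with the next at 377.2. FL1 pool 4 had the highest signal of Rab5a, 1637.3, with the next at 1375.6. DUKsi pool 4 had the highest signal of Rab14 1419246_s_at, 3300.5, with the next at 2695.1.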

How the results depend on the processing

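The Rab14 probe set 1441992_at passed the test under every alternative run, and no result changed direction past the test. The count of Rab probe sets higher in FL1 was 1 with all pools. It was 2 at an adjusted p under 0.05 (with 1 lower and 2 higher by at least 1.5-fold), 5 with the actin ratio as a covariate (2 of them at least 1.5-fold by mean signals, which the covariate does not adjust), 2 without FL1 pool 3 and DUKsi pool 4, and 1 to 2 when single pools were left out. The 5 were Rab14 1441992_at and 1415686_at, Rab2a 1418621_at, Rab27a 1425285_a_at and Rab12 1427992_a_at. Of all probe sets, 5.48% passed with this covariate and 3.38% in the main fit, so that 5 of 95 is near the background. Of the 94 regulators and effectors, 0 passed with all pools, 2 were higher with 24 arrays and the pool as a random block (Rab3ip and Inpp5b), 1 with each form of the methods' t-test (Rab3ip), 2 at an adjusted p under 0.05, 1 without FL1 pool 3 and DUKsi pool 4 and 0 to 1 when single pools were left out. With the actin ratio as a covariate 2 were higher (Tbc1d15 and Inpp5b) and 2 lower (Rabep1 and Tbc1d24). Of all probe sets, 5.65% passed with the random block and 5.48% with the covariate, so that neither count of regulators stands above the background. The cause of these shifts was not tested. Among the named probe sets, 843 of the values under the alternatives kept their call. These had either the same sign or a change of sign with a shift under the SE of the main fit. A further 13 changed sign by at least that SE without a call, and 5 crossed to past the test. Shifts without a change of sign or call were not counted as moved, whatever their size.

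Over all probe sets, 413 were higher and 351 lower, against 700 and 578 with the random block, 593 and 648 with the actin covariate, 256 and 251 with linear signals in the methods' t-test, 791 and 773 at an adjusted p under 0.05, and 634 and 229 with arrays scaled to the same median, which put the median log2 ratio of all at 0.02 and that of the Rab probe sets at 0.07, against -0.07 and -0.02 before. Pools with the same number did not deviate together (correlations of -0.26 to 0.17), so that the numbers do not pair the pools. With the pool number as a replicate block, 334 probe sets were higher and 230 lower, and 1 Rab probe set was higher and 0 lower. The 6 pools per line and dim signals limit what could be bounded.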
